A study of Mus musculus with 12 samples.

Results

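Regulatory T cells (Tregs) of mouse melanoma tumours were described by droplet single-cell RNA-seq, in which each captured mRNA carries a unique molecular identifier (UMI) and is counted once. Tregs were chosen by measured transcripts: a tumour cell counted as a Treg when it held at least 1 UMI of Foxp3, at least 1 UMI of the CD3 genes Cd3e, Cd3d or Cd3g together, and 0 UMIs of Cd8a, Cd8b1 and the myeloid gene Lyz2. Only cells with at least 300 detected genes, at most 15% mitochondrial counts and a leading hashtag of at least 10 counts and 2 times the next were considered. This left 231 Tregs among 50416 tumour cells (0.458%), or 5.44% of the 4250 tumour cells with a CD3 UMI and no Lyz2 UMI. The levels of Foxp3 and of the other genes in that definition are therefore given below as a description and were not tested.

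The study hashed and live-sorted cells of tumours from 5 lines, SCC31, SCC32, SCC35, SCC37 and SCC40, taken at days 6, 10, 16 and 20. The hashtag table calls SCC31 and SCC40 rejected and the other lines non-rejected, and gives SCC31 tumours at days 6 and 10 only and SCC40 tumours to day 16 only. The labels used here give no mouse strain, age, sex or genotype and name no treatment. Tumours were the replicates: 43 are listed, 41 had a kept cell, 40 had at least 20, 34 held at least 1 Treg and 20 held at least 5. Each line had a library of its own, and tumour number 3 of SCC31, SCC35 and SCC40 was run in a further, mixed library, so line and library cannot be told apart outside that library.

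Tregs are CD4 T cells that restrain other immune cells and depend on the transcription factor Foxp3. They carry the high-affinity interleukin-2 receptor chain Il2ra and the inhibitory receptor Ctla4, which competes with the costimulatory receptor of other T cells for its ligands, and many carry the transcription factor Ikzf2 (Helios). In tumours, Tregs often have an activated, effector form with receptors of the TNF receptor family and cytokines such as interleukin 10.

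In the mm10 genome, Foxp3 (ENSMUSG00000039521) lies on chromosome X from 7573644 to 7595245. Il2ra (ENSMUSG00000026770) lies on chromosome 2 from 11642807 to 11693193. Ctla4 (ENSMUSG00000026011) and Ikzf2 (ENSMUSG00000025997) lie on chromosome 1, from 60887000 to 60915832 and from 69531214 to 69687245. These are whole gene spans of the GENCODE M21 annotation.

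The 6 libraries held 5691826 to 112724631 gene UMIs, and the median per kept cell ranged from 2118 to 6645 UMIs. Pairs of libraries shared 1.73% to 3.47% of the barcodes of the smaller one. The SCC31 library stood apart for its few cells: its tumours at day 6 gave 87 and 76 cells, and those at day 10 gave 169 and 3. None of these SCC31 tumours held a Treg, so all 10 SCC31 Tregs came from the mixed library.

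The label was checked on the genes that the definition did not use. Ikzf2 was detected in 78.8% of Tregs, against 14.1% of conventional CD4 T cells, which were cells with a CD3 and a Cd4 UMI and no Foxp3, Cd8a, Cd8b1 or Lyz2 UMI (1157 cells). Il2ra was detected in 64.9% of Tregs against 20.3%, and Ctla4 in 77.1% against 48.1%. Of the 231 Tregs, 111 (48.05%) had a UMI of all 3 genes, 69 (29.9%) of 2, 39 (16.9%) of 1 and 12 (5.2%) of none. The markers thus went with the label.

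Foxp3 was thinly sampled: 125 Tregs (54.1%) rested on 1 Foxp3 UMI, 56 (24.2%) on 2 and 50 (21.6%) on 3 to 7. Free RNA in the droplets can place a UMI in a cell that does not express the gene. Foxp3 was found in 0.192% of 9372 macrophage-gated cells (median 2555 UMIs), in 0.256% of 35928 cells with neither CD3 nor Lyz2 (median 4947 UMIs), in 0.667% of 1050 CD8 T cells (median 2154 UMIs) and in 6.99% of 1244 CD4 T cells (median 2219 UMIs). Among the Tregs, cells with 1 Foxp3 UMI and those with at least 2 carried the other markers at similar rates once each cell was thinned to 1000 UMIs. Ikzf2 was then found in 54.9% and 50%, Il2ra in 40.2% and 42.0%, Ctla4 in 58.8% and 61.0%, and Tnfrsf4 in 73.5% and 70.0%.

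At the edges of the definition, 409 tumour cells had a Foxp3 UMI. Of these, 110 had no CD3 UMI, and among those with one, 54 were removed by a Lyz2 UMI and 14 by a Cd8a or Cd8b1 UMI. Just inside, 29 Tregs (12.6%) had a single CD3 UMI, 1 Treg had 348 genes, and none was within 5 counts of the hashtag minimum. A Cd4 UMI was found in 87 Tregs (37.7%), whereas every conventional CD4 cell has one by definition. Scrublet, a doublet caller, called 16 Tregs (6.93%) as doublets, and these were kept. Tregs had a median of 2305 UMIs (537 to 18972) and 1127 genes.

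Tregs were unevenly spread over the tumours. SCC32 gave 101 of the 231 (43.7%), SCC35 53, SCC40 40, SCC37 27 and SCC31 10, and the days gave 29, 96, 67 and 39 in order of time. The lines labelled rejected together gave 50 (21.6%). The largest single contributions were 38 and 24 Tregs from the SCC32 tumours of day 10. Among 7227 cells of day 0 none met the definition, which allows a share of up to 0.0415%. Only 82 of those cells had a CD3 UMI and no Lyz2 UMI.

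Tregs took a larger share of all tumour cells on each line's last day than on day 6. The mean change over the 5 lines was 0.368 percentage points, with tumours permuted between the days within each line (two-sided exact permutation test over 24 tumours, p = 0.00543, adjusted p = 0.0326 over 6 share tests). The call was lost in 12 of the 24 fits that left out 1 tumour (adjusted p up to 0.147). In SCC40 the share was 0.123% ± 0.115 (SD, n = 3) at day 6, 0.227% ± 0.145 (n = 3) at day 10 and 0.930% ± 0.301 (n = 2) at day 16. Each SCC40 tumour of day 16 lay above every earlier SCC40 tumour. In SCC32 the share was 0.287% ± 0.107 at day 6, 3.18% ± 1.52 at day 10, 0.429% ± 0.194 at day 16 and 0.887% ± 0.374 at day 20 (n = 2 each). The peak at day 10 was 4.26% in one tumour (95% Wilson interval 3.12% to 5.79%) and 2.11% in the other (1.42% to 3.12%). These intervals cover counting error only.

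The other lines had smaller differences between the means of day 6 and the last day. In SCC35 the share was 0.170% ± 0.0948 at day 6 (n = 3), 0.259% ± 0.158 at day 10 (n = 3), 0.562% ± 0.139 at day 16 (n = 2) and 0.193% ± 0.0886 at day 20 (n = 3). In SCC37 it was 0.242% ± 0.342, 0.366% ± 0.517, 0.364% ± 0.425 and 0.461% ± 0.208 in order of time (n = 2 each), and the tumours of each day overlapped those of the others. In SCC31 only the mixed-library tumours held Tregs, at 0.412% on day 6 and 0.653% on day 10. The SCC31 tumours with 0 Tregs allow shares of up to 3.45%, 3.95% and 1.78% at their depth. Without the mixed library the mean change was 0.326 points (adjusted p = 0.139), and with cells thinned to 1000 UMIs it was 0.156 points (adjusted p = 0.124).

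Measured against the T cells, a change in the share of Tregs was not called, and the lines differed in direction. Among cells with a CD3 UMI and no Lyz2 UMI, the mean change from first to last day was -0.0385 percentage points (exact permutation test over 22 tumours, adjusted p = 0.976). SCC32 had 4.37%, 11.6%, 4.88% and 6.04% Tregs among these cells in order of time, and SCC35 had 6.09%, 8.93%, 11.3% and 4.98%. SCC40 went from 3.19% through 1.46% to 6.67%. By line, the change from first to last day was 1.67 points in SCC32, -1.11 in SCC35, 0.0795 in SCC37 and 3.48 in SCC40. In SCC31 it was -4.31 points, with 1 tumour at day 6. The sign of the mean change depended on single tumours: it differed in 11 of the 22 fits that left a tumour out.

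The number of Tregs beside conventional CD4 T cells was given by tumour at day 10. SCC40 tumours held 2.80, 3.70 and 5.61 Tregs per 100 conventional CD4 cells, and the SCC31 tumour of the mixed library held 4.27 (the other SCC31 tumour had 0 Tregs beside 5 such cells). SCC32 tumours held 27.3 and 25.8, and SCC35 tumours 10.5, 57.1 and 66.7. The SCC37 tumours held 22.2 and 0, the latter from 32 conventional CD4 cells. The SCC40 tumours and the mixed-library SCC31 tumour were thus below every SCC32 and SCC35 tumour at that day, a pattern read from the values and not tested. The other SCC31 tumour has too few cells to be placed. At day 16 SCC40 held 11.1 and 28, SCC32 35.3 and 10.2, and SCC35 108 and 157, and SCC37 tumour 2 held 16.7. SCC37 tumour 1 had 6 Tregs beside 2 conventional CD4 cells. SCC40 thus overlapped SCC32 at that day.

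The share tests between lines at day 10 did not pass. They permuted the sum of squares between lines, and the spans of means are given beside them as a description. For the share of all cells, the lines' means spanned 2.95 percentage points, from SCC40 to SCC32 (exact permutation test over 12 tumours, p = 0.0435, adjusted p = 0.130). For the share of CD3 cells they spanned 10.9 points, from SCC31 to SCC32 (p = 0.0833 by the same exact test, adjusted p = 0.167). With a Foxp3 minimum of 2 UMIs the latter span was 6.17 points and the exact permutation test passed (adjusted p = 0.0060). At day 6 the adjusted p of the exact permutation test was 0.976 for each share.

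**Figure D1:**
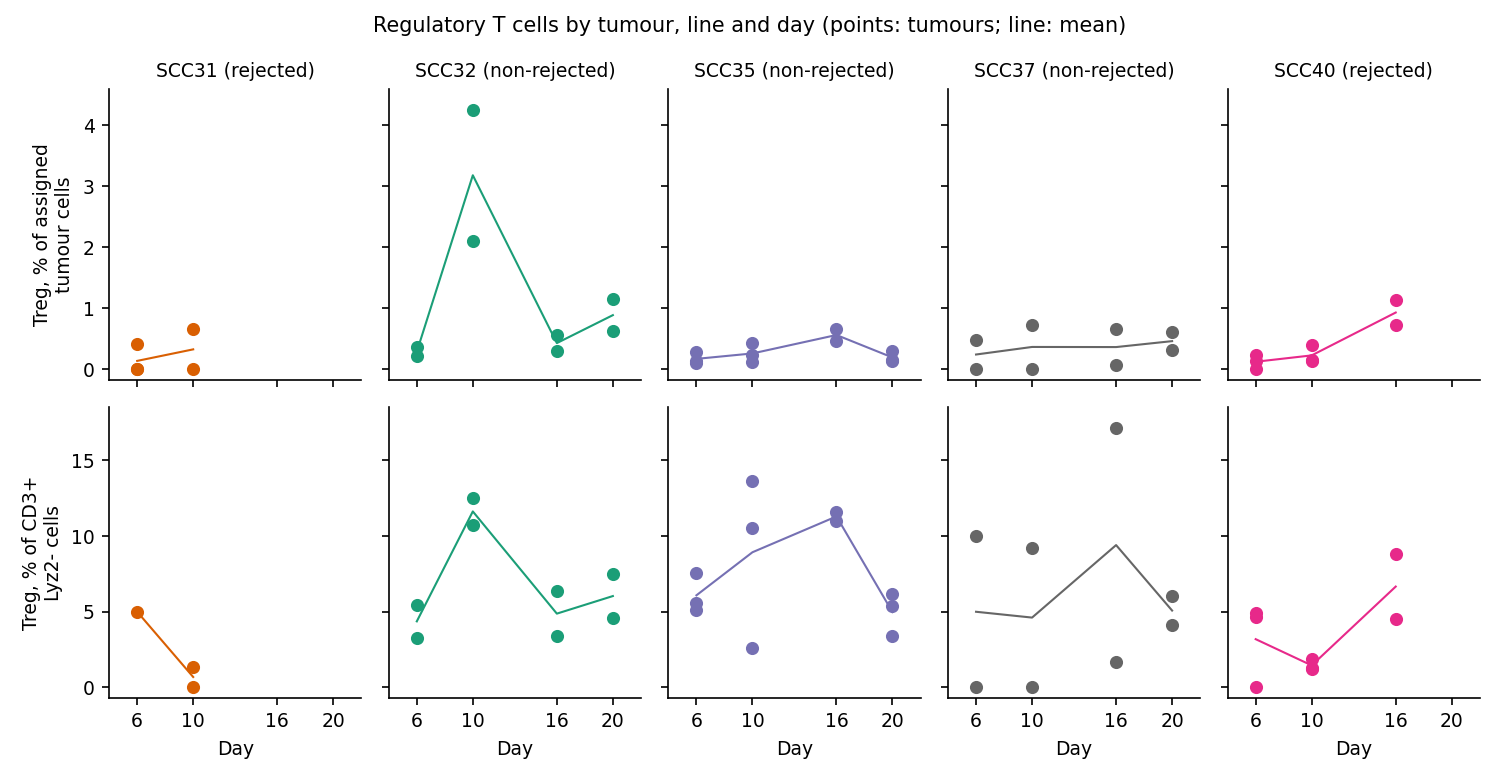
Share of Tregs among all assigned tumour cells (upper row) and among CD3 cells without Lyz2 (lower row), in percent, by day and with a panel per tumour line. Points are tumours and the drawn line joins the means of each day. The SCC32 tumours of day 10 stand at 2.11% and 4.26% of all cells, and the SCC40 means move from 0.123% at day 6 to 0.930% at day 16.

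Individual Tregs combined several effector transcripts. Gzmb, the protease granzyme B, was detected in 71.0% of Tregs, near its rate of 64.3% in CD8 T cells and above the 20.7% of conventional CD4 cells. The TNF receptor family members Tnfrsf4 (OX40), Tnfrsf9 (4-1BB) and Tnfrsf18 (GITR) were detected in 90.0%, 82.7% and 82.7% of Tregs, against 70.9%, 38.6% and 58.2% of conventional CD4 cells. Klrg1, a receptor of terminally differentiated lymphocytes, was in 26.0% of Tregs against 1.47%, and Itgae, the integrin chain CD103, in 26.8% against 1.90%. Macrophage-gated cells, which should lack them, held Tnfrsf4 in 1.15% and Gzmb in 1.95%. After thinning to 1000 UMIs, which left 202 Tregs (29 were shallower) and 1054 conventional CD4, 887 CD8 and 8207 macrophage-gated cells, the shares were lower but in the same order. Gzmb was then in 53.5%, 13.6%, 48.3% and 1.10% of these groups, and Klrg1 in 16.3%, 1.04%, 1.35% and 0.0853%.

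Some transcripts were rare or missing in Tregs. Cd40lg, the ligand by which helper T cells activate B cells, was detected in 2.17% of Tregs and 32.8% of conventional CD4 cells. Ifng, the cytokine interferon gamma, was detected in 7.36% of Tregs, 49.1% of conventional CD4 cells and 26.9% of CD8 cells. Tcf7, a factor of resting and memory T cells, was in 0.433% of Tregs, 3.37% of conventional CD4 cells and 10.6% of CD8 cells. Gpr83, a receptor counted among the Treg core genes below, was in 0.866% of Tregs.

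The effector transcripts did not split the Tregs into exclusive groups. Klrg1 was found in 60 Tregs, and 46 of those (76.7%) also held Gzmb, against 69.0% of the Tregs without Klrg1. Il10 was found in 33 Tregs, of which 28 (84.8%) held Gzmb, against 68.7% of the rest. Klrg1 and Il10 were found in deeper cells, with medians of 3234 against 1990 UMIs and 2857 against 2237 UMIs. The part of depth in these rates was not tested. The chemokine receptor Ccr8 was in 67 Tregs and the decoy receptor Il1r2 in 48, with 25 holding both. That is 37.3% of the Ccr8 cells and 52.1% of the Il1r2 cells, and Il1r2 was in 14% of Tregs without Ccr8. Cells with Ccr8 were deeper, with a median of 3732 UMIs against 1934, and the part of depth in this overlap was not tested. The cycling genes Mki67 and Top2a were in 74 and 83 Tregs and shared 58, again in deeper cells (median 4580 against 1736 UMIs for Mki67).

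**Figure D2:**
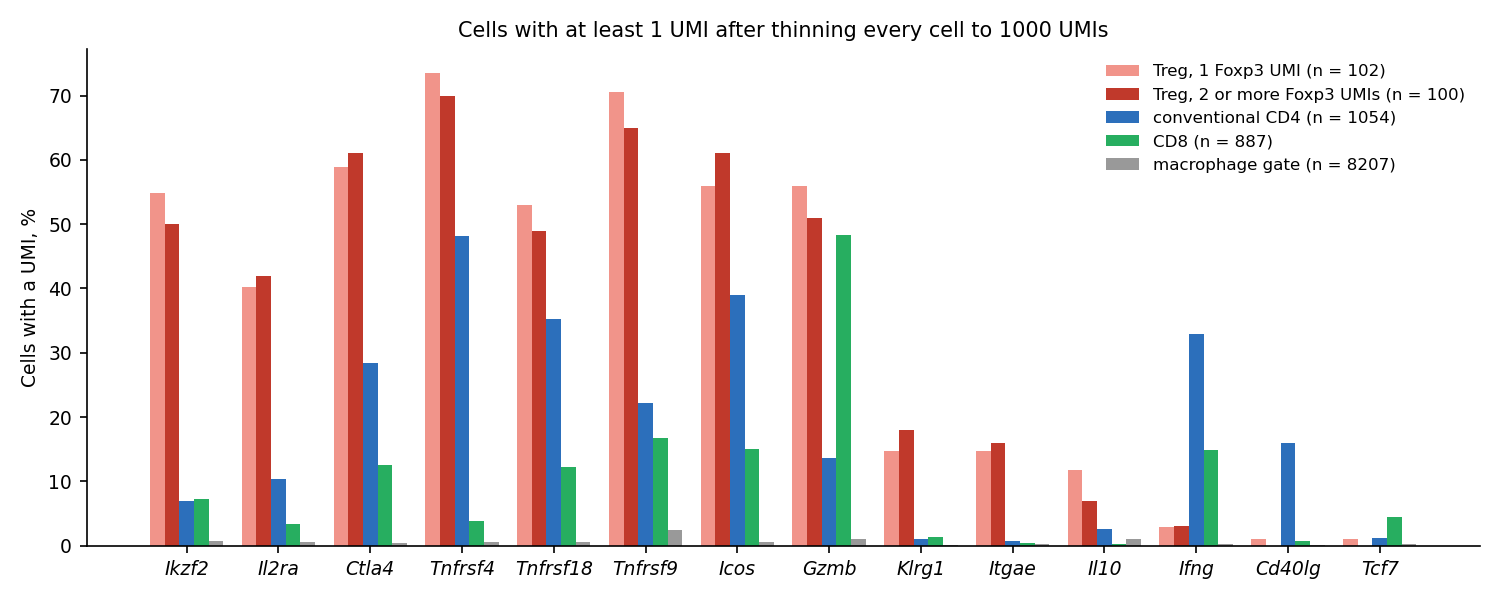
Percent of cells with at least 1 UMI of each of 14 genes after thinning every cell to 1000 UMIs. Bars are Tregs with 1 Foxp3 UMI, Tregs with at least 2, conventional CD4 cells, CD8 cells and macrophage-gated cells. All Tregs together, not drawn as a bar of their own, reach 71.8% for Tnfrsf4 and 53.5% for Gzmb. Macrophage-gated cells stay at 0.548% and 1.10%.

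Tregs were next set against the conventional CD4 T cells of the same tumours, to ask what sets Tregs apart among the CD4 T cells of a tumour. Levels are CPM (counts-per-million) of the UMIs summed over all cells of a class in a tumour, scaled by trimmed means of M values (TMM) within each fit. The fit used 19 tumours with at least 5 cells of each class (190 Tregs and 835 conventional CD4 cells). edgeR's quasi-likelihood test with the tumour as a block called 295 of 8024 genes at a Benjamini-Hochberg adjusted p under 0.05, which is 3.68% of the genes tested. Of these, 151 were higher in Tregs (1.88%) and 144 lower (1.79%). Scaling by TMM factors from all tested genes moved the median log2 fold change of all genes by -0.28 and gave 83 genes higher and 494 lower. A Foxp3 minimum of 2 UMIs, an alternative cited below, left only 6 tumours in the fit, so lost calls under it also reflect fewer tumours. Tumours are separate samples in the labels, but nothing says that each came from a mouse of its own, so p-values measure the spread between these tumours.

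The Treg core list held most of its members above the conventional CD4 cells: 12 of its 15 tested genes rose and none fell. Its median log2 fold change was 1.34, against -0.01 for all genes tested. Ikzf2 was at 32.9 to 1536 CPM in Tregs (median 815) and at 17.9 to 716 CPM in conventional CD4 cells (median 67.9). It was higher in Tregs in all 19 tumours, although the ranges overlapped (log2 fold change 3.28 ± 0.21 SE, edgeR adjusted p = 2.1e-29). Lrrc32, which codes for GARP, the surface protein that docks latent TGF-beta, was at 24.0 to 340 CPM in Tregs (median 120) and at 0 to 24.9 CPM in conventional CD4 cells (median 0), a log2 fold change of 4.63 ± 0.40. It too was higher in 19 of 19 tumours.

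Il2ra had a median of 455 CPM in Tregs and 96.9 CPM in conventional CD4 cells, and Ctla4 964 and 284 CPM. Each was higher in all 19 tumours (log2 fold changes 2.02 ± 0.21 and 1.70 ± 0.17). Izumo1r, folate receptor 4, had 186 against 23.5 CPM and was higher in 17 tumours. Itgae had 87.2 against 0 CPM and was higher in 14 and lower in 3. The remaining core genes that rose were Tnfrsf4, Tnfrsf18, Ikzf4, Fgl2, Socs2 and Il2rb, of which Socs2 had a log2 fold change of -0.03 with a Foxp3 minimum of 2 UMIs. Under the alternatives tried, 10 to 12 core genes rose.

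Among the effector Treg genes, 10 of 27 tested rose and 3 fell, with a median log2 fold change of 0.59. Gzmb had the smallest adjusted p of the list: 176 to 3834 CPM in Tregs (median 866) against 0 to 492 CPM (median 199), higher in 19 of 19 tumours (log2 fold change 2.58 ± 0.19, edgeR adjusted p = 3.9e-24). Klrg1 had medians of 87.8 and 0 CPM and was higher in 16 tumours and lower in 1 (4.33 ± 0.41 on the log2 scale). Tnfrsf9 (1003 against 237 CPM), Icos, a costimulatory receptor (850 against 346 CPM), and Tigit, an inhibitory receptor (223 against 72.7 CPM), also rose. So did the transcription factor Maf (502 against 218 CPM) and Areg, the tissue repair factor amphiregulin (1053 against 324 CPM).

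Il10 had a median of 56.9 CPM in Tregs and 0 in conventional CD4 cells and was higher in 13 tumours and lower in 3 (log2 fold change 2.40 ± 0.38). This call was lost with a Foxp3 minimum of 2 UMIs, the setting under which 5 effector genes rose. The inhibitory receptor Pdcd1 (PD-1) fell, with medians of 21.8 against 165 CPM and lower levels in 17 of 19 tumours (log2 fold change -2.39 ± 0.33), as did Rgs16 and Id2. Ccr8 and Il1rl1 did not pass. Ccr8 had medians of 117 and 72.7 CPM (log2 fold change 0.58 ± 0.28, edgeR adjusted p = 0.391), and the interleukin-33 receptor Il1rl1 109 and 97.0 CPM (0.04 ± 0.27, adjusted p = 0.985).

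Of 14 suppression genes, 7 rose (Gzmb, Lrrc32, Ctla4, Il10, Tigit, Itgb8 and Fgl2) and 1 fell (Furin, a protease that also processes TGF-beta), with 3 rising at a Foxp3 minimum of 2 UMIs. Of 17 genes of the TNF receptor family and its NF-kB pathway, 5 rose and none fell. They were Tnfrsf9, Tnfrsf4 (1494 against 592 CPM, higher in 18 of 19 tumours), Cd27, Tnfrsf18 (569 against 285 CPM, higher in 16) and Tnfrsf13b. In the resting list the survival gene Bcl2 fell (0 against 47.0 CPM, lower in 16 of 19 tumours).

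Among receptors that guide migration, the chemokine receptor Ccr2 rose (288 against 127 CPM, higher in 18 of 19 tumours), and Cxcr6 fell (0 against 254 CPM, lower in 19 of 19, log2 fold change -2.89 ± 0.29). The integrin chains Itgae and Itgb7, which pair to form a receptor for epithelial cadherin, rose, while Itgb1 and Itgal fell.

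Genes of helper T cells were lower in Tregs: 7 of 13 fell and none rose (median log2 fold change -1.61). Ifng was at 0 to 324 CPM in Tregs (median 0) and at 126 to 3472 CPM in conventional CD4 cells (median 664), lower in 19 of 19 tumours (log2 fold change -4.53 ± 0.29, edgeR adjusted p = 3.3e-30). Csf2, the cytokine GM-CSF, had medians of 0 and 108 CPM, and Cd40lg 0 and 128 CPM, each lower in 18 tumours. The Th2 cytokine Il13 had 1 UMI in all Treg sums against 179, a ratio of 0.0236 after scaling to the UMIs of each class (95% counting interval 0.000593 to 0.133), and DESeq2 did not call it. With edgeR's default low-count filter 5 of the helper genes were tested and 2 fell.

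Further ligands were nearly missing in Tregs. Tnfsf8, the ligand of CD30, had 0 UMIs in Tregs against 249, at least 19.7-fold lower with 3 UMIs over the group as the floor. Tnfsf11, known as RANKL, had 3 against 454 UMIs, a ratio of 0.0279 (0.00573 to 0.0820). The chemokine Ccl1 had medians of 0 and 94.9 CPM and was lower in 16 of 19 tumours.

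Cytotoxic genes split. Gzmb alone rose among the 15 tested, and 7 fell, with a median log2 fold change of -1.33. The protease Ctsw had 0 against 136 CPM, Nkg7, a granule protein, 219 against 674 CPM, and the death ligand Fasl 0 against 49.8 CPM. Klrd1, the NK receptor chain CD94, had 0 UMIs against 194, at least 15.3-fold lower. Genes that T cell receptor signals induce did not rise in any case: 4 of 19 fell, led by Bhlhe40, a transcription factor (235 against 687 CPM, lower in 19 of 19 tumours), and the phosphatase Dusp2 (99.1 against 221 CPM).

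Proliferation genes were higher in Tregs in 6 of 20 and lower in none (median log2 fold change 0.68). Mki67 was at 0 to 763 CPM in Tregs (median 209) and at 0 to 274 CPM in conventional CD4 cells (median 96.7), higher in 15 tumours and lower in 4 (log2 fold change 1.27 ± 0.24, edgeR adjusted p = 7.0e-05). Top2a had 317 against 168 CPM. The count was 2 with TMM factors from all tested genes and 10 at a hashtag ratio of 4. Of 24 interferon response genes 5 rose, led by the GTPase Igtp (332 against 170 CPM), and 1 rose without the mixed library, at a Foxp3 minimum of 2 UMIs or with TMM factors from all tested genes.

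Ighm, the immunoglobulin mu heavy chain of B cells, was among the genes with the largest rises (76.8 against 8.34 CPM, higher in 16 of 19 tumours, log2 fold change 3.60 ± 0.37). It was detected in 31.6% of Tregs, 3.89% of conventional CD4, 9.49% of CD8 and 9.58% of macrophage-gated cells. The kappa light chain gene Igkc, chosen after its values were seen, was also higher in Tregs (35.6 against 0 CPM, higher in 11 tumours and lower in 2). Of the 6 B cell markers 2 were detected in the Treg sums, Ighm and Cd79b, summing to a median of 101 CPM against 8.34 CPM in conventional CD4 cells, while Cd79a, Ms4a1 and Ebf1 were at 0. Their part in the result was not tested. The GTPase genes Arl5a (263 against 43.4 CPM) and Gimap7 (174 against 37.5 CPM) were also among the 10 largest rises.

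Transcripts of other cells were present in the sums. The 15 macrophage markers without Lyz2 were all detected and summed to 377 to 12181 CPM in Tregs (median 735), against 548 to 3438 CPM (median 1120) in conventional CD4 cells, with the highest Treg value in the SCC31 tumour of day 10. The 13 stromal and tumour markers summed to 36.4 to 3790 CPM (median 412) in Tregs and 35.8 to 2691 CPM (median 950) in conventional CD4 cells, with S100b, Dct, Mlana and Tyrp1 at 0 in Tregs. The dendritic cell markers, 9 of 12 detected, summed to 281 to 11236 CPM (median 734) in Tregs, with the highest value in that same SCC31 tumour and Xcr1, Clec9a and Cd209a at 0, against a median of 598 CPM in conventional CD4 cells. Of 6 dendritic cell markers tested, Ccl22 and Cd74 were called higher in Tregs, as was Ctss of 9 macrophage markers. All 3 calls were lost by DESeq2, without the mixed library and without that SCC31 tumour. None of the 5 neutrophil markers was detected. Of the genes called higher in Tregs, 7 of 151 (4.64%) had a higher level in cells without CD3 than in Tregs, against 50.35% of all genes tested. Of those called lower, 66 of 144 (45.8%) did. Their part in the calls was not tested.

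**Figure D3:**
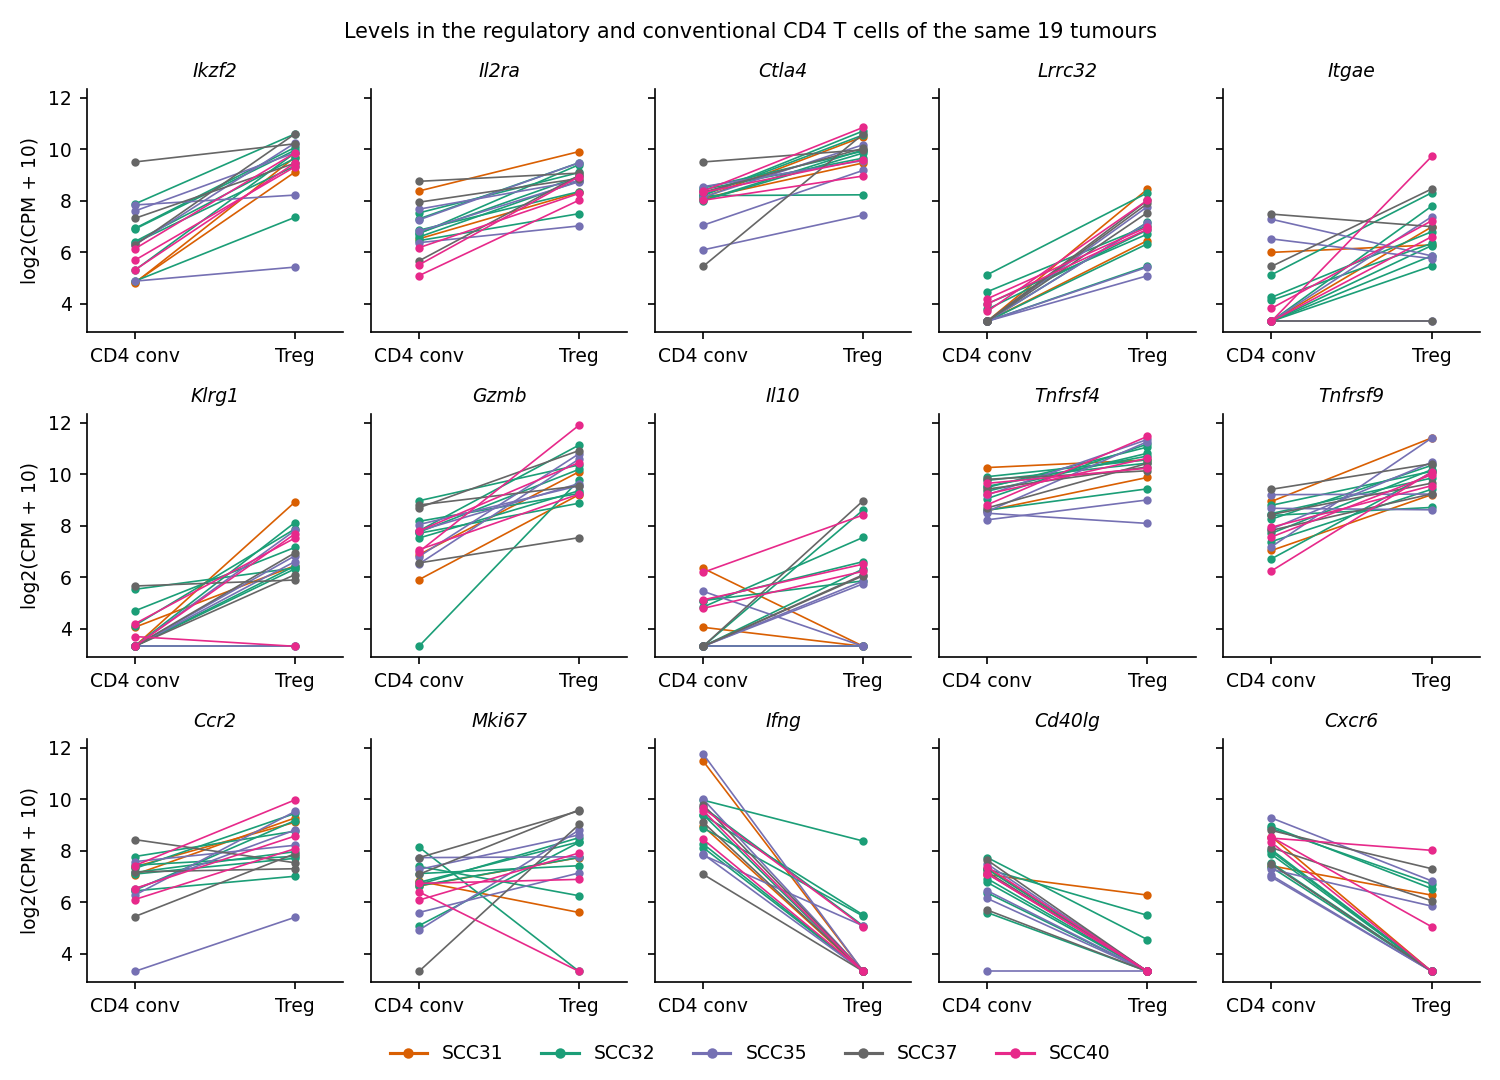
Levels of 15 genes in Tregs and conventional CD4 cells of the same 19 tumours, as log2(CPM + 10), with a line joining each tumour's pair. Ikzf2, Gzmb, Il2ra and Ctla4 are higher in Tregs in all 19 tumours, and Ifng and Cxcr6 are lower in all 19.

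Against the CD8 T cells of the same tumours, Tregs had more transcripts of costimulatory receptors and Treg regulators and fewer of most cytotoxic genes. The fit used 20 tumours (196 Tregs and 784 CD8 cells). edgeR called 490 of 8272 genes (5.92%), 269 higher in Tregs (3.25%) and 221 lower (2.67%). TMM factors from all tested genes moved the median of all genes by -0.37 on the log2 scale and gave 122 genes higher and 665 lower. With a Foxp3 minimum of 2 UMIs 111 genes were called, in a fit that kept only 6 tumours. The same Treg sums served in both comparisons.

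Tnfrsf4 separated the classes without overlap, at 247 to 2857 CPM in Tregs (median 1455) and 0 to 174 CPM in CD8 cells (median 42.1; log2 fold change 4.90 ± 0.19, edgeR adjusted p = 6.0e-63). Il2ra also did, at 117 to 1018 CPM (median 472) against 0 to 105 CPM (median 26.3). Tnfrsf18 did so at medians of 555 and 112 CPM. Ccr8, whose test against conventional CD4 cells did not pass, was at 0 to 336 CPM in Tregs (median 118) and at 0 to 11.3 CPM in CD8 cells (median 0), higher in 17 of 20 tumours and at 0 in both classes in 3 (log2 fold change 5.28 ± 0.44). Maf had medians of 523 and 20.1 CPM. Lrrc32 was higher in 20 of 20 tumours and Itgae in 18.

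By list, 12 of 15 core genes rose, and 18 of 27 effector genes rose and 1, Pdcd1, fell. The medians of these lists were 2.91 and 1.62 on the log2 scale, against 0.02 for all genes. Of the suppression genes 9 of 15 rose, among them Il10 (52.9 against 0 CPM) and Ebi3, a chain of interleukin 35 (44.1 against 0 CPM), while the pore protein gene Prf1 fell. Of the TNF receptor family and NF-kB genes 10 of 17 rose, and 3 at a Foxp3 minimum of 2 UMIs. Of the 20 proliferation genes none was called by edgeR in either direction, nor by DESeq2. Mki67 alone passed an unadjusted p under 0.05, and had medians of 221 and 169 CPM (adjusted p = 0.194).

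Cytotoxic genes fell in 13 of 16 cases (median log2 fold change -3.17). The chemokine Ccl5, which is on both the cytotoxic and the helper list, was at 0 to 756 CPM in Tregs (median 283). In CD8 cells it was at 790 to 8245 CPM (median 2582), with no overlap (log2 fold change -3.47 ± 0.17). Nkg7 had medians of 226 and 1203 CPM, and Prf1 0 and 60.1 CPM. Gzma, granzyme A, had 4 UMIs in Tregs and 917 in CD8 cells. Klrd1 had 0 against 673 UMIs, at least 59.4-fold lower, and the chemokine Xcl1 3 against 575, a ratio of 0.0197 (0.00406 to 0.0579). Gzmb, Gzmc and Cst7 did not pass. Gzmb was at 174 to 3865 CPM in Tregs (median 821) and 240 to 2419 CPM in CD8 cells (median 1049), lower in Tregs in 12 of 20 tumours (0.03 ± 0.16, edgeR adjusted p = 0.975).

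Genes of resting T cells fell against CD8 cells in 4 of 15 cases (Bcl2, Tcf7, Dapl1 and Klf2). Tcf7 had 1 UMI in Tregs and 116 in CD8 cells, a ratio of 0.0326 (0.000818 to 0.185). The surface protein Ly6c2 (36.9 against 1904 CPM) and Plac8 (0 against 524 CPM) did not overlap between the classes. Ly6c2 has the near-identical neighbour Ly6c1, which can share its reads. The beta chain constant gene Trbc2 fell in both comparisons (-0.85 and -1.23 on the log2 scale), but its near-identical copy Trbc1 makes its counts uncertain.

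**Figure D4:**
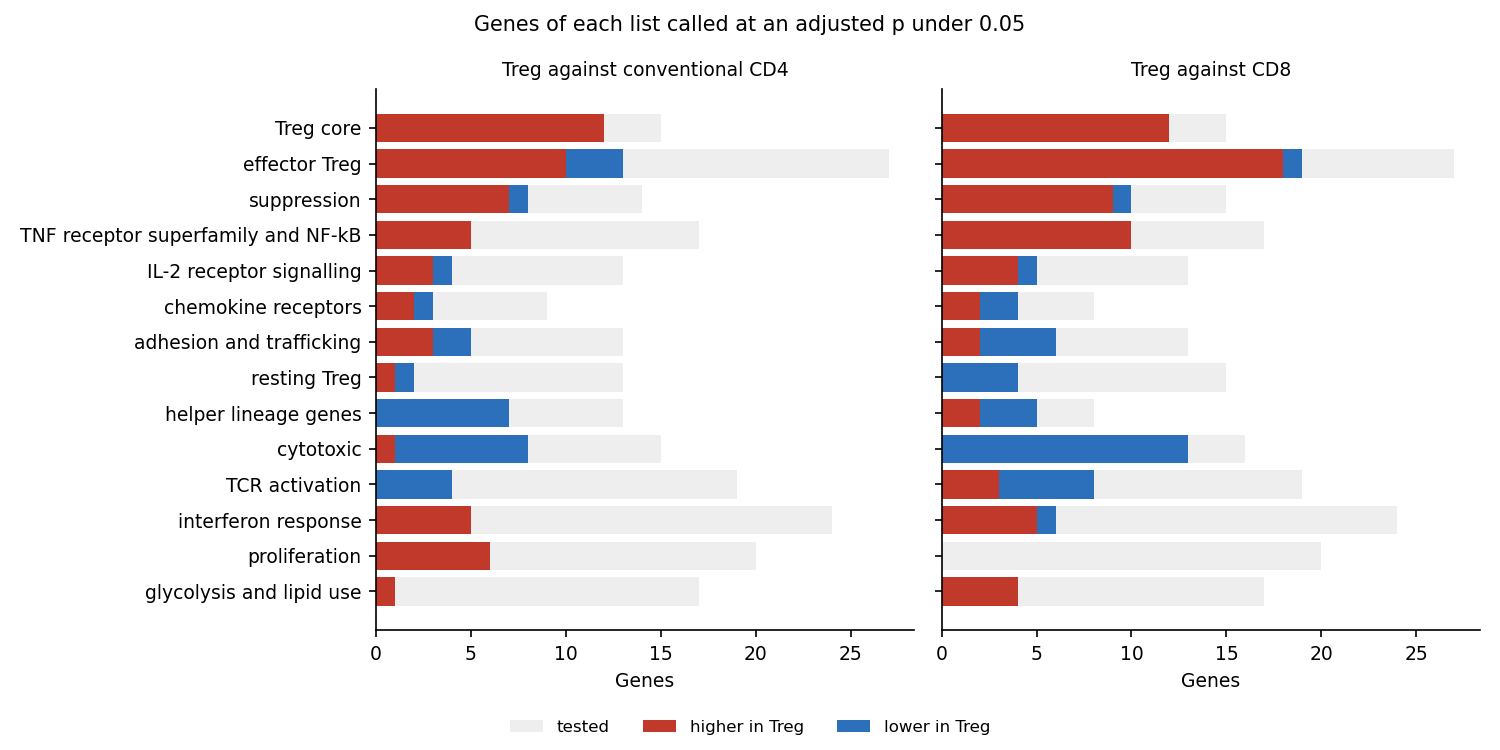
Number of genes of each of 14 lists called higher (red) or lower (blue) in Tregs, stacked over the number tested (grey), against conventional CD4 cells (left) and CD8 cells (right). The core list has 12 of 15 higher in both panels, and the cytotoxic list has 7 of 15 and 13 of 16 lower.

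Within the Tregs, the days were compared over 20 tumours (3 of day 6 with 15 cells, 6 of day 10 with 85 and 11 of day 16 or 20 with 96), in 1 edgeR fit with the line as a term. From day 6 to day 10, 79 of 3684 genes were called (2.14%), 10 higher (0.271%) and 69 lower (1.87%). Tigit was at 0 to 71.0 CPM in the tumours of day 6, at 182 to 391 CPM in those of day 10 and at 68.4 to 552 CPM later (log2 fold change 3.56 ± 0.87, edgeR adjusted p = 0.020). The inhibitory receptor Lag3 (0 to 54.9 CPM, then 97.0 to 880 CPM) and Maf (66.5 to 284, then 339 to 2249 CPM) also rose with no overlap between days 6 and 10. Irf8, a transcription factor, was at 0 in all 3 tumours of day 6 and at 55.1 to 388 CPM at day 10.

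These calls rested on few cells. Without SCC32 tumour 1 of day 6, whose 5 Tregs had a median of 16640 UMIs, edgeR called 0 genes between day 10 and day 6, with 214 at an unadjusted p under 0.05. Of those 5 Tregs, 1 was left by a stricter gate that removes cells with macrophage, B cell or stromal UMIs. Removing Scrublet doublets left 3, and a Foxp3 minimum of 2 UMIs left 0. DESeq2 called 9 genes with all tumours. Of the genes that fell, 67 of 69 (97.1%) had a higher level in cells without CD3 than in Tregs, against 42.2% of all genes tested. Stromal and tumour markers summed to 71.0, 1829 and 3790 CPM in the Treg sums of day 6, the last in that SCC32 tumour, and to a median of 76.4 CPM at day 10 and 484 CPM later. Macrophage markers had medians of 2618, 1502 and 613 CPM in order of time. Their part in the result was not tested.

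The genes that fell included Car9, a carbonic anhydrase induced by low oxygen (71.0 to 696 CPM at day 6, 0 to 12.7 at day 10 and 0 to 113 later), and the secreted protein Spp1 (426 to 10510, then 36.4 to 1398 CPM). Spp1 stood at 3852 CPM in macrophage-gated cells and 7511 CPM in the other cells without CD3. Il1rl1, the interleukin-33 receptor of tissue Tregs, fell from 142 to 1446 CPM at day 6 to 0 to 109 CPM at day 10 (log2 fold change -3.79 ± 0.64, edgeR adjusted p = 0.00075). It was found at 183 and 398 CPM in those same CD3-negative groups.

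Of the Treg core genes 0 of 14 were called by edgeR between days 6 and 10 (5 at an unadjusted p under 0.05, and 0 by DESeq2), although their median log2 fold change was 0.995, against -0.099 for all genes. Of 25 effector genes 3 rose (Tigit, Lag3 and Maf) and 1 fell (Il1rl1), with a median of 1.52. Ikzf2 had medians of 165, 709 and 1016 CPM at day 6, day 10 and later, Ctla4 311, 1113 and 912, and Icos 256, 1109 and 792. Il10 was at 0 in all 3 tumours of day 6, with medians of 124 and 59.7 CPM after that. The adjusted p of day 10 against day 6 was 0.112 for Ikzf2 and 0.0928 for Il10. Il2ra had medians of 432, 418 and 477 CPM.

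From day 6 to day 16 or 20, 9 genes were called (0.244%), 1 higher (0.0271%) and 8 lower (0.217%). Bcl2a1b, a survival gene of the Bcl2 family, rose, at 33.2 to 73.2 CPM at day 6 and 153 to 771 CPM later (log2 fold change 2.87, edgeR adjusted p = 0.049), though near-identical copies of this gene make its counts uncertain. The interferon genes Bst2 and Ifit3 and the collagen gene Col1a1 were among those that fell. DESeq2 called 0 genes, with 205 at an unadjusted p under 0.05. edgeR called 0 without SCC32 tumour 1 of day 6 (166 unadjusted) and 0 without SCC32 tumour 2 of day 20 (311 unadjusted).

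Between day 10 and day 16 or 20, edgeR called 0 of 3684 genes (0.0%), with 210 at an unadjusted p under 0.05, and DESeq2 called 0 with 116. Gzmb had a median of 1879 CPM at day 10 (545 to 4498) and 776 CPM later (189 to 1693). Its log2 fold change was -1.25 ± 0.30 with an adjusted p of 0.208. The ranges overlapped.

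**Figure D5:**
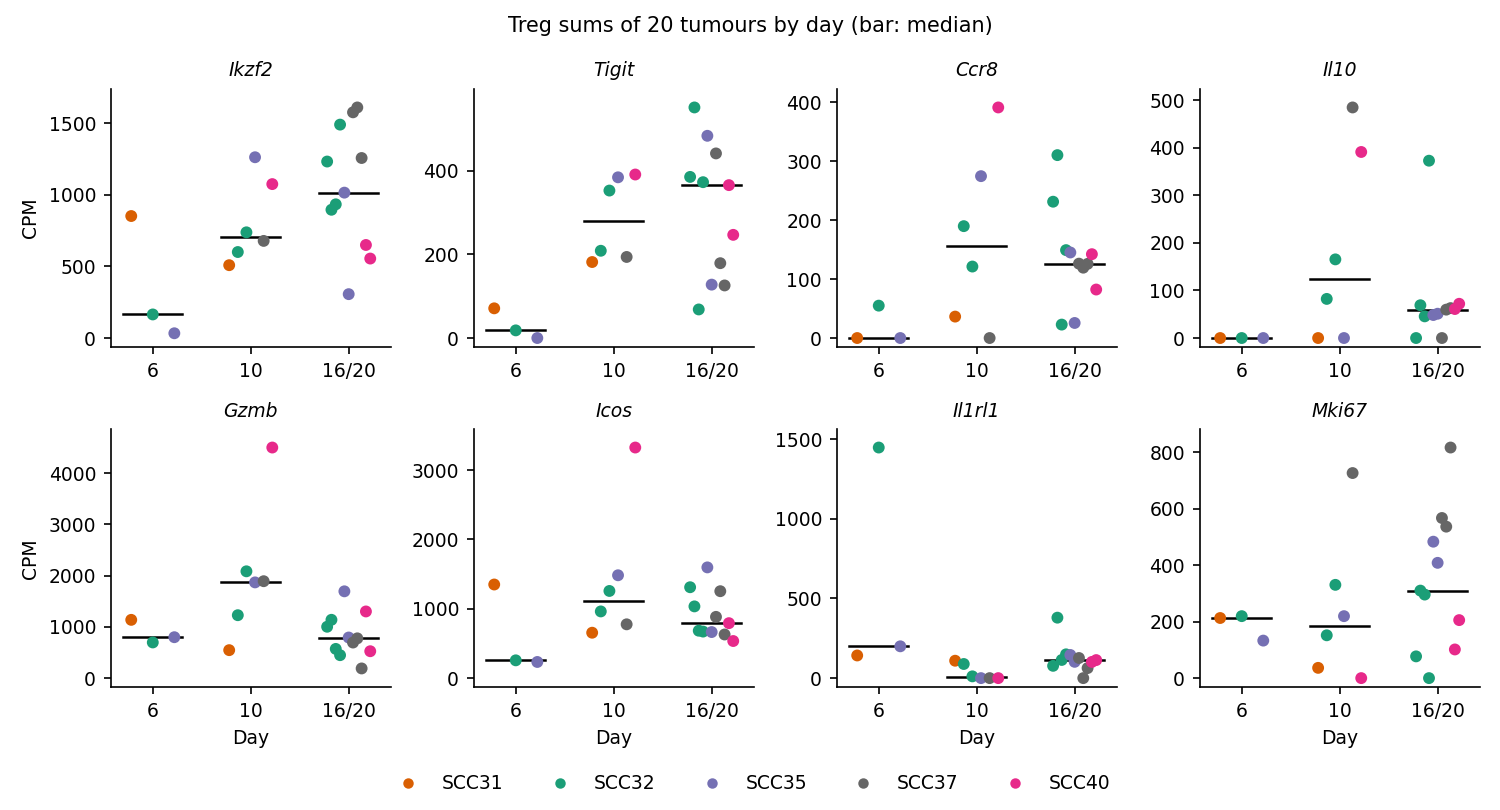
Levels of 8 genes in the Treg sums of 20 tumours, in CPM, by day group and coloured by line, with a bar at the median. Tigit stays at or under 71.0 CPM in the 3 tumours of day 6 and at or above 182 CPM in the 6 of day 10, while the Mki67 levels overlap.

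Between the lines, 47 of 3684 genes were called by edgeR over all 5 lines (1.28%), with the day group as a term. None of them was in the core list, where 0 of 14 genes passed an unadjusted p under 0.05, or in the effector list, where 5 of 25 did. DESeq2 called 0 in each of these lists. The levels of the main Treg genes overlapped widely. Ikzf2 had medians of 681, 896, 661, 1418 and 650 CPM in SCC31, SCC32, SCC35, SCC37 and SCC40, Tnfrsf4 1218, 1758, 1623, 1322 and 1463 CPM, and Gzmb 841, 1002, 1246, 735 and 1300 CPM. Their adjusted p-values were 0.744, 0.974 and 0.650.

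Mki67 came nearest to a line difference among the genes given by tumour. It was at 537 to 818 CPM in the 4 SCC37 tumours and at 484 CPM or less in all others, with medians of 125 in SCC31, 220 in SCC32, 314 in SCC35 and 102 in SCC40. The SCC37 tumours did not overlap the rest, but edgeR's test over all lines did not pass (unadjusted p = 0.00201, adjusted p = 0.101). DESeq2 called it (adjusted p = 0.0393), as the 1 called gene of the 20 on the proliferation list, where edgeR called 0 with 3 at an unadjusted p under 0.05.

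Of the 47 genes, 33 (70.2%) had a higher level in cells without CD3 than in Tregs, against 42.2% of the genes tested, and their part was not tested. They included Col1a1 (highest in SCC32, mean 351 CPM) and Timp1 (highest in SCC35, mean 907 CPM). Lgals1, the secreted lectin galectin 1, was highest in SCC35, at a mean of 8484 CPM against 2532 to 3334 CPM elsewhere. Rel, the NF-kB subunit c-Rel, was highest in SCC37, at 622 CPM against 175 to 325 CPM (edgeR adjusted p = 0.0413). The actin-binding protein gene Tmsb4x was highest in SCC31 at 18106 CPM against 4804 to 8506 CPM, and Crip1 at 5769 against 1269 to 1800 CPM. Both SCC31 tumours were in the mixed library. The count of genes called ranged from 16 to 89 with single tumours left out, and was 27 by DESeq2.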

How the data were processed

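The deposited matrices hold raw UMI counts per gene and barcode, with hashtag counts in the same matrices, and the submitters' processing notes name Cell Ranger 6.0.0 and mm10. Cells were kept and assigned to tumours as given above. The members, gene lists and tests were chosen with earlier results of these data known. Scrublet (scanpy 1.11.5, expected rate 0.08) was run per library, and where its own threshold called under 0.5% of cells the median of the thresholds found elsewhere was taken. Raw UMIs were summed per tumour and class for at least 5 cells. edgeR 4.0.16 (R 4.3.3) fitted the sums after filterByExpr with a minimum count of 2 and a total of 30, with TMM factors from genes with a mean of at least 10 counts, a choice made after the data were seen because factors from all genes gave false calls on simulated data. Alternatives were DESeq2 1.42.0 and its size factors, no filter or the default one, at least 10 cells per sum, a Foxp3 minimum of 2, a hashtag ratio of 4, no doublets, a stricter gate without macrophage, B cell and stromal UMIs, no mixed library, tumour number as a block, and each tumour left out. Genes of the gates were not tested. Named genes are, per comparison, the 10 largest and 10 smallest log2 fold changes among called genes with a mean of at least 50 CPM, the called list members with the smallest p (up to 4 per direction), and a fixed set given by tumour. Some genes the rule picks are not reported here. Detection shares were thinned to 1000 UMIs. The other list members, cell shares and gene pairs in the text were chosen after their values were seen. Shares were tested by exact permutation over tumours (scipy 1.17.1). Other cell types were not analysed here beyond these comparisons.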

Additional observations from a re-analysis of the deposited data

Results flagged for a closer look

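For the genes given by tumour, the highest and the lowest Treg level were checked in each of 70 groups of 4 to 10 tumours (the tumours of day 10, or those of a line), and a level was listed when its gap to the next tumour took up most of the group's range (Dixon's 95% limit). This picked 9 groups. The limit stands for about 1 in 20 only where values are normally distributed and groups are separate. These sums are sparse and the groups by day and by line share tumours, so the rate by chance is not known.

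Among the 6 tumours of day 10, SCC40 tumour 3 had the highest Icos (3325 CPM, next 1483) and the highest Itgae (977.9 CPM, next 164.8). It was the smallest Treg sum, with 6 cells and 10713 UMIs. SCC35 tumour 3 had the highest Tnfrsf9 at day 10 (2856 CPM, next 1271). SCC32 tumour 2 of day 10 had the only Tcf7 count of any Treg sum (11.02 CPM, the others at 0). It was a single UMI, which meets the limit by construction both at day 10 and within SCC32, so these 2 of the 9 groups carry no information.

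Within SCC37, the tumour of day 10 had the lowest Ccr8 (0 CPM, next 119.3) and the highest Il10 (484.8 CPM, next 62.89), and tumour 1 of day 16 had the highest Il2ra (1072 CPM, next 566). Within SCC32, tumour 1 of day 6 had the highest Il1rl1 (1446 CPM, next 379.2). That tumour also had the highest stromal and tumour marker sum of all Treg sums (3790 CPM).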

How the results depend on the processing

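Of the named genes, 41 of 62 against conventional CD4 cells and 46 of 82 against CD8 cells kept their call under every alternative that tested them, but 3 of 24 between day 10 and day 6 and 0 of 8 between later days and day 6. Those tested and called under all alternatives numbered 35, 34, 0 and 0. The only reversals among them were Socs2 (-0.030, Foxp3 minimum of 2) and Cd74 (-0.050, stricter gate) against conventional CD4 cells, and Rel (-0.18, Foxp3 minimum of 2), Gapdh (-0.069, TMM over all genes) and Fscn1 (-0.078, hashtag ratio 4) against CD8 cells. The cause was not tested for any change given here. Genes called against conventional CD4 cells numbered 577 with TMM over all genes (chosen after the data were seen), 175 with the default filter (1672 genes tested) and 181 with a Foxp3 minimum of 2. Against CD8 cells they numbered 787, 216 (at least 10 cells per sum) and 111 (Foxp3 minimum of 2). The fits with a Foxp3 minimum of 2 held 6 tumours, and that with at least 10 cells per sum held 7. Day 10 against day 6 gave 9 by DESeq2, 150 with no filter, 1 with the default filter and 36 without the mixed library. Later days against day 6 gave 15 with DESeq2's size factors, 0 by DESeq2, 31 with no filter, 0 with the default filter and 33 without the mixed library. Later days against day 10 gave 9 with no filter, 1 at hashtag ratio 4, 1 without doublets and 2 with the stricter gate. Between lines the counts were 27 by DESeq2, 142 with no filter, 3 with the default filter, 22 with at least 10 cells, 22 without the mixed library, 7 with a Foxp3 minimum of 2 and 11 at hashtag ratio 4.

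With tumour number as a replicate block the day contrasts gave 11, 15 and 4 genes in the order above and the lines 18. With line and day group taken out, same-numbered tumours were no more alike than others. The median correlation was -0.038 over 63 same-numbered pairs and -0.034 over 127 others. In sums of so few cells this does not decide whether the numbers pair the tumours. The contrasts with day 6 could not be fitted with at least 10 cells per sum, a Foxp3 minimum of 2, hashtag ratio 4, no doublets or the stricter gate.

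The change in the Treg share of all cells was 0.156 points after thinning and 0.326 without the mixed library, neither passing. The change in the share of CD3 cells was positive with a Foxp3 minimum of 2 (1.2), hashtag ratio 4 (0.554), no doublets (0.0418) and no mixed library (0.978). The test of the CD3 share between lines at day 10 passed with a Foxp3 minimum of 2 (span 6.17).

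With each tumour left out in turn, counts ranged from 232 to 373 against conventional CD4 cells, 448 to 509 against CD8 cells, 0 to 166 for day 10 against day 6, 0 to 32 for later days against day 6, 0 to 5 against day 10, and 16 to 89 between lines. The share changes ranged from 0.302 to 0.433 points of all cells and from -1.04 to 1.03 of CD3 cells. The spans between lines ranged from 1.88 to 4.03 and 10.02 to 11.85 at day 10, and from 0.119 to 0.361 and 1.72 to 6.81 at day 6. The tumours whose absence ended the call on all cells were SCC31 day 6 tumours 1 and 2 and day 10 tumour 3, SCC32 day 6 tumours 1 and 2 and day 20 tumour 1, SCC37 day 6 tumour 2 and day 20 tumour 1, and SCC40 day 6 tumours 1, 2 and 3 and day 16 tumour 2. Day 6 gave 3 tumours and 15 Tregs, which limits the precision of the contrasts with that day.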
